A study of Mus musculus with 6 samples.

Results

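Cyclins and mitosis genes, 41 in all, were followed in the rat ovary after exposure to fine particulate matter (PM2.5) collected in a cowshed environment. The set was chosen by name, with earlier results of these data known. All 41 genes had a row among the 22487 genes of the deposited table. Of these, 36 act in G2 or mitosis and 5 are the D and E cyclins, which act in G1 and at the entry into S phase. RNA sequencing covered the ovaries of adult female rats in 2 groups of 3 libraries, both labelled wild type: untreated controls and animals with the cowshed PM2.5 treatment. All titles state 30 days and do not define them, and the sources used here do not give the age of the animals or the dose and route of exposure. The organism field names the mouse, but all 22487 gene identifiers are rat Ensembl identifiers, so the samples were treated as rat. Since no label ties the libraries to separate animals, p-values measure only the spread between these samples, which may be technical.

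Cells divide under the control of cyclin-dependent kinases. D cyclins carry growth signals through G1, E cyclins start DNA replication, and A and B cyclins with Cdk1 drive entry into mitosis, after which a ubiquitin ligase destroys the B cyclins and lets chromosomes part. In the adult ovary the granulosa cells of growing follicles are the main dividing population, endothelial cells divide as a corpus luteum forms, and oocytes store many of the same transcripts for meiosis while they rest in prophase. Luteal cells have largely left the cycle.

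Library totals ran from 47662338 to 60749578 counts, and all 41 genes passed the filter of a mean of at least 0.5 FPKM (fragments per kilobase and per library total, as deposited) that left 15303 genes for testing. Marker lists of cell types were read in each library, and all 10 granulosa, all 10 oocyte and all 7 luteal markers had counts. So did every marker found of the immune and erythroid lists, so the presence of counts does not test the ovarian label. Control 3 stood apart from the other controls, with the lowest score of any library on the granulosa list (-1.17) and the oocyte list (-1.74) and the highest on the luteal list (0.65). PM2.5 library 3 was at the other end, at 0.65, 1.31 and -0.72. A score is the mean over a list of log2 CPM (counts scaled by TMM to a common library total) after subtraction of each gene's mean over the 6 libraries. Because these libraries bear on most values that follow, the median of each gene list is also given without them. In bulk tissue, fewer cells of a type and less RNA per cell cannot be told apart.

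No gene of the 41 passed the test between exposed and control ovaries, although most G2 and mitosis genes had higher values in PM2.5. Of the 36, 33 had a positive log2 fold change, with a median of 0.70, while 50.4% of all tested genes were positive and their median was 0.0041. The D and E cyclins did not share this, with 2 of 5 positive and a median of -0.10. With edgeR's quasi-likelihood F test and Benjamini-Hochberg adjustment across the 15303 genes, adjusted p for the 41 lay between 0.122 and 0.934, in a comparison that called 0.928% of all genes. Without the adjustment, 5 of the 36 had p below 0.05 in the higher direction (13.9%), beside 9.17% of all genes in that direction. They were Cdc25b, Ect2, Nuf2, Cenpe and Kif4a. One of the D and E cyclins, Ccnd3, did so in the lower direction, where 11.7% of all genes did. Limma on log2(FPKM + 1) also called 0 of the 41. DESeq2 called 3, namely Cdc25b and Cenpe as higher (4.79% of all genes) and Ccnd3 as lower (6.78%).

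**Figure D1:**
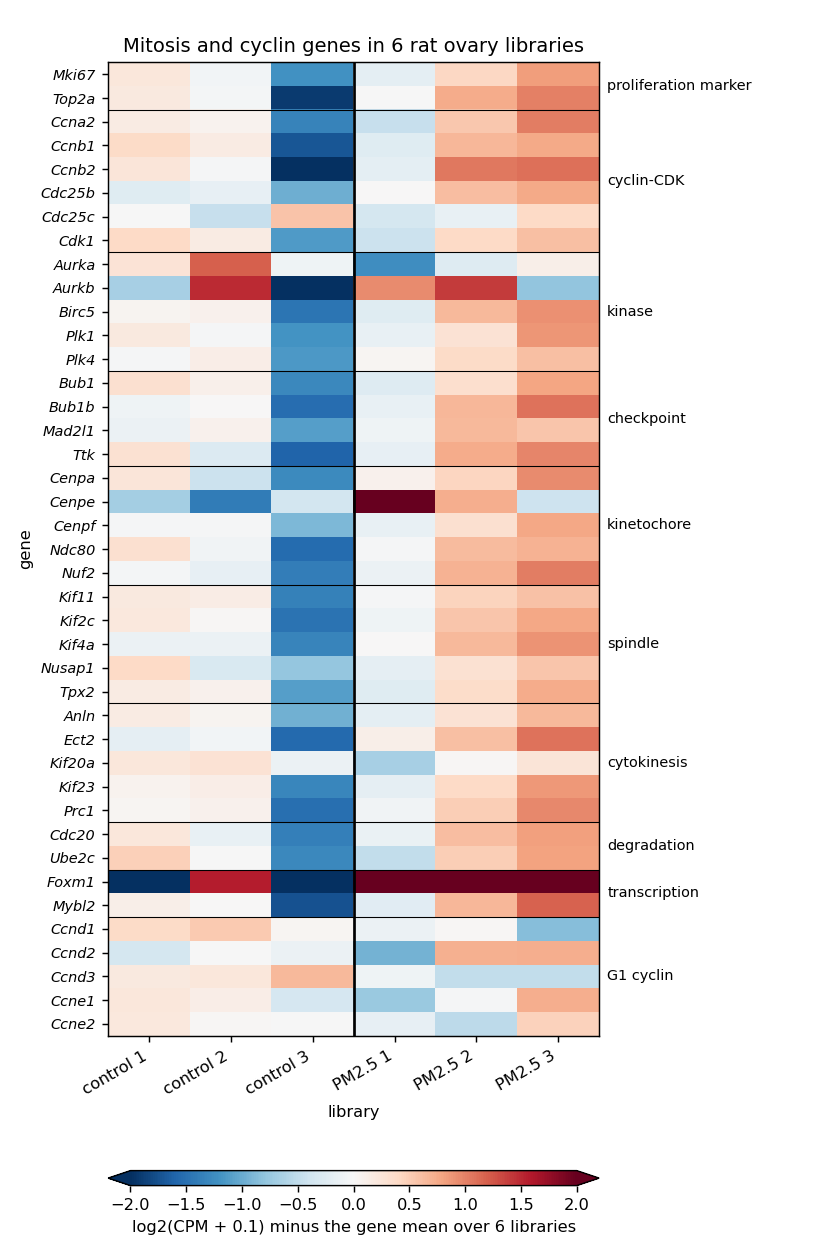
Heat map of the 41 genes (rows, grouped by role) in 6 libraries (columns, controls left of the line, PM2.5 right), coloured by log2(CPM + 0.1) minus the gene's mean. Control 3 is the bluest (lowest) column for most mitosis genes and PM2.5 library 3 the reddest (highest), while Aurka, Aurkb, Cenpe, Cdc25c, Kif20a and the D and E cyclins depart from that pattern.

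The spread inside the groups was larger than the difference between them. Control 3 was the lowest library and PM2.5 library 3 the highest for 30 of the 36 G2 and mitosis genes (83.3%), a pattern shown by 11.6% of all tested genes. Taken alone, control 3 was the lowest library for 32 of the 36 (88.9%), beside 25.7% of all tested genes. Among all tested genes it was also the highest library for 24.5%, and PM2.5 library 3 was the highest for 20.8%. The difference of control 3 from the mean of controls 1 and 2 had a median of -1.42 on the log2 scale. The range among the 3 controls exceeded the difference between the group means for 34 of the 36 genes (94.4%), compared with 71.5% of all tested genes. PM2.5 library 1 was the lowest of its group for 34 of the 36 (94.4%, beside 38.8% of all tested genes). For 29 it lay within the range of the controls (80.6%, beside 41.5% of all tested genes). PM2.5 libraries 2 and 3 were both above every control for 30 of the 36 genes (83.3%, beside 20.3% of all genes). The groups as a whole were apart for 4 of the 36, all higher in PM2.5 (11.1%), close to the 12.1% of all genes that were higher without overlap.

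Without control 3 the median log2 fold change of the 36 genes was 0.36, without PM2.5 library 3 it was 0.53, and 33 of the 36 were positive in each case. Without both, a choice made after the data were seen, the median was 0.18 and 27 were positive. Where control 3 is lowest and PM2.5 library 3 highest, leaving either out lowers the fold change by construction. Leaving out PM2.5 library 1 moved it the other way, to 0.90 with 35 positive.

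Mki67 and Top2a are the usual markers of dividing cells, the first coating mitotic chromosomes and the second untangling DNA. In controls 1 to 3, Top2a stood at 108, 91.9 and 25.0 CPM, and in PM2.5 libraries 1 to 3 at 94.1, 158 and 189 CPM. PM2.5 library 1 fell inside the controls and the other exposed libraries above them, with control 3 far below. The log2 fold change was 0.97 ± 0.53 (SE). Mki67 had 95.5, 78.5 and 35.4 CPM in the controls and 71.6, 109 and 146 CPM in PM2.5, and its groups overlapped in the same way. Its log2 fold change was 0.64 ± 0.40. The 2 genes had adjusted p of 0.337 (Top2a) and 0.400 (Mki67) by edgeR's quasi-likelihood F test.

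The A and B cyclins and their kinase followed the same course. Ccnb2, one of the B cyclins, had 27.6, 22.9 and 5.07 CPM in the controls and 20.1, 48.1 and 49.8 CPM in PM2.5. Control 3 was several times below its group, and the PM2.5 libraries split into 1 low and 2 high. Ccnb2 has a named pseudogene in the table, Ccnb2-ps2, so its reads may be divided. Log2 fold changes were 1.09 ± 0.63 for Ccnb2, 0.71 ± 0.49 for Ccna2 and 0.60 ± 0.53 for Ccnb1. Cdk1, the kinase these cyclins activate, had 42.5, 36.1 and 14.7 CPM in the controls and 23.9, 42.6 and 49.3 CPM in PM2.5. Its fold change was 0.31 ± 0.43, smaller than its SE, and it became -0.02 without control 3.

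Cdc25b and Cdc25c encode phosphatases that remove the inhibitory phosphates from Cdk1. Cdc25b had 21.6, 22.6 and 12.8 CPM in the controls and 25.7, 39.2 and 43.4 CPM in PM2.5, so every exposed library was above every control. Its log2 fold change of 0.92 ± 0.29 had an adjusted p of 0.157 by edgeR's quasi-likelihood F test, and 0.0434 with DESeq2. Leaving out single libraries gave 0.71 to 1.12. Cdc25c did not share this pattern, with 8.45, 6.18 and 12.7 CPM in the controls and 6.70, 7.69 and 11.3 CPM in PM2.5. Control 3 was its highest library, and the fold change was -0.09 ± 0.36.

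**Figure D2:**
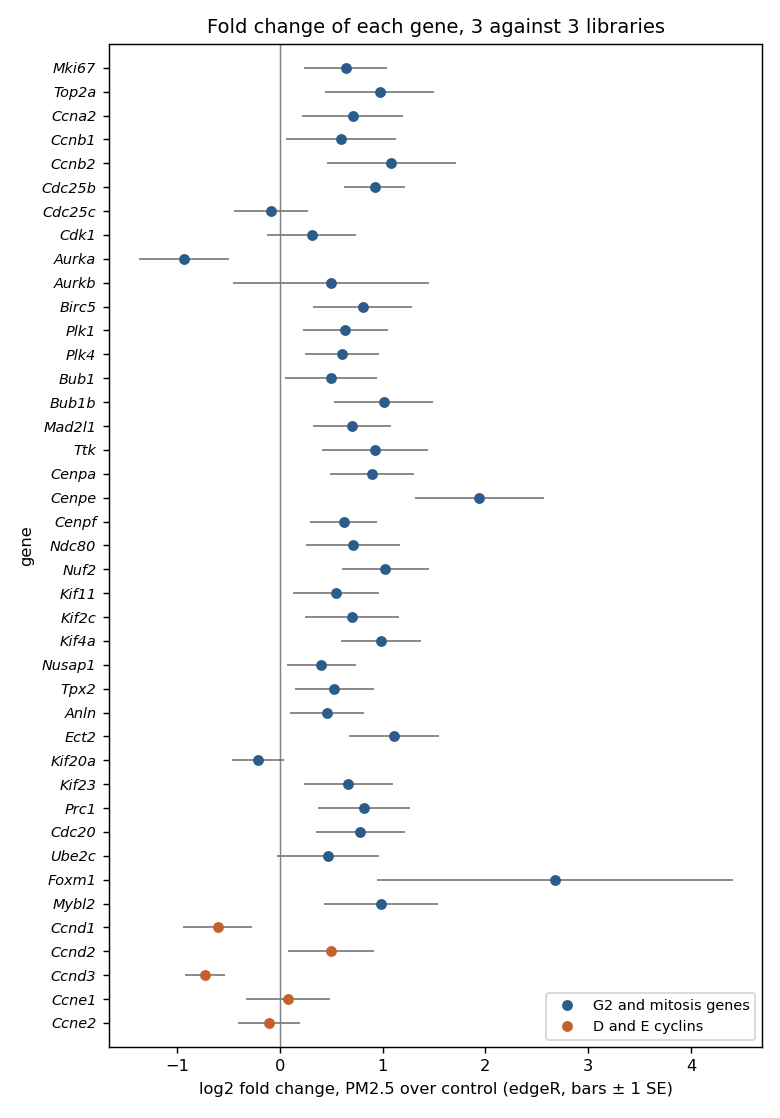
Log2 fold change of PM2.5 over control for each gene (points, edgeR) with bars of ± 1 SE, from 3 against 3 libraries. Of the 36 G2 and mitosis genes 33 lie right of 0, Aurka, Kif20a and Cdc25c lie left, and the D and E cyclins (second colour) lie on both sides.

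Checkpoint genes hold cells in metaphase until every chromosome is attached. Bub1b, a component of the inhibitor of chromosome separation, had 14.9, 16.0 and 5.43 CPM in the controls and 14.3, 25.2 and 33.7 CPM in PM2.5. The exposed libraries ranged from the level of controls 1 and 2 to well above them in library 3, and the fold change was 1.01 ± 0.48. Ttk, the kinase that starts checkpoint signalling, had 0.93 ± 0.52. For Mad2l1, which binds and restrains Cdc20, it was 0.70 ± 0.37, and for the kinase Bub1 0.50 ± 0.45. None of the 4 passed, and control 3 was the lowest library for all 4.

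Of the kinetochore genes, which link chromosomes to the spindle, 4 of 5 had control 3 as their lowest library. Nuf2, part of the microtubule-binding Ndc80 complex, had 22.7, 20.7 and 8.91 CPM in the controls and 21.4, 37.7 and 47.5 CPM in PM2.5. Only PM2.5 library 1 lay among the controls. Its log2 fold change was 1.03 ± 0.43, and its partner Ndc80 had 0.71 ± 0.46. Cenpa, the histone variant that marks centromeres, had 0.90 ± 0.41, and Cenpf, a large protein of the outer kinetochore, 0.62 ± 0.33.

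Cenpe, a kinesin that carries chromosomes to the metaphase plate, was the exception. It had 93.7, 56.6 and 116 CPM in the controls and 661, 249 and 113 CPM in PM2.5. PM2.5 library 1, the lowest of its group for 34 of the 36 genes, was its highest by a wide margin, and PM2.5 library 3 was at the level of control 3. The fold change of 1.94 ± 0.63 had an adjusted p of 0.160 by edgeR's quasi-likelihood F test and 0.0104 with DESeq2, and the estimate was 1.03 without PM2.5 library 1. Per length, its mean level was also out of step with Cenpf: 10.4 ± 3.16 FPKM in the controls and 40.3 ± 33.7 in PM2.5 (SD, n = 3), with 1.88 ± 0.639 and 2.88 ± 0.903 FPKM for Cenpf. Cenpe lies at chr2:223636998-223695669 (build not given in the sources used here), and the table lists no other gene within 5000 bases of it.

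Spindle assembly genes shared 1 pattern. For all 5, control 3 was the lowest and PM2.5 library 3 the highest library. Kif4a, a chromosome-bound kinesin, had 17.7, 17.6 and 7.57 CPM in the controls and 19.2, 30.2 and 35.8 CPM in PM2.5. The groups did not overlap, though PM2.5 library 1 cleared control 1 by little. Its log2 fold change was 0.99 ± 0.39 (adjusted p = 0.218 by edgeR's quasi-likelihood F test). The fold change was 0.70 ± 0.45 for Kif2c, which strips tubulin from microtubule ends, and 0.55 ± 0.42 for Kif11, which pushes the poles apart. Tpx2, the activator of Aurora A on the spindle, had 0.53 ± 0.39, and Nusap1, a microtubule bundler, 0.40 ± 0.33.

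Among the cytokinesis genes, Ect2, the exchange factor that activates RhoA at the cleavage site, had 17.7, 19.2 and 6.73 CPM in the controls and 21.7, 30.2 and 42.3 CPM in PM2.5. Each exposed library was above each control. The fold change was 1.11 ± 0.43 with an adjusted p of 0.216 by edgeR's quasi-likelihood F test, and 0.77 without control 3. Prc1, which bundles the central spindle, had 0.82 ± 0.45, the motor Kif23 0.67 ± 0.43 and the ring scaffold Anln 0.46 ± 0.36. Kif20a, a motor of the central spindle, instead had 58.2, 60.9 and 45.9 CPM in the controls and 31.5, 51.0 and 59.7 CPM in PM2.5. Its values varied little between libraries apart from PM2.5 library 1, and its fold change was -0.21 ± 0.25. Its row overlaps Cdc23 on the opposite strand, and no source used here gives the strand setting of the counting.

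Cdc20 and Ube2c serve the ubiquitin ligase that ends mitosis, as its activator and its conjugating enzyme. Cdc20 had 33.2, 25.7 and 10.9 CPM in the controls and 26.0, 43.9 and 50.4 CPM in PM2.5. Control 3 was again the lowest, and PM2.5 library 1 was at the level of control 2. Log2 fold changes were 0.78 ± 0.43 for Cdc20 and 0.47 ± 0.50 for Ube2c.

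The mitotic kinases did not share 1 pattern. Plk1, which acts from mitotic entry to cytokinesis, had 27.9, 24.1 and 10.6 CPM in the controls and 22.1, 29.8 and 45.3 CPM in PM2.5. This was the common pattern, and Plk4, the kinase of centriole duplication, and Birc5, the survivin subunit of the Aurora B complex, shared it. The fold changes were 0.64 ± 0.41 for Plk1, 0.60 ± 0.36 for Plk4 and 0.81 ± 0.48 for Birc5.

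Both Aurora kinases differed from it. Aurkb, which corrects faulty chromosome attachments, had 65.4, 293 and 19.5 CPM in the controls and 201, 275 and 60.1 CPM in PM2.5. Control 2 was its highest library and PM2.5 library 3 one of its lower ones, so levels varied more inside each group than between them, and the fold change was 0.50 ± 0.95. Estimates ran from 0.0019 without control 3 to 2.07 without control 2. Aurka, which matures centrosomes, had 49.5, 94.4 and 38.8 CPM in the controls and 17.2, 34.2 and 44.4 CPM in PM2.5. PM2.5 library 3 lay among the controls and the other exposed libraries below them, with a fold change of -0.93 ± 0.44 (adjusted p = 0.280 by edgeR's quasi-likelihood F test), which was -0.47 without control 2. The row of Aurka overlaps Fam210b on the opposite strand, which had far more counts, over only 85 bases. Fam210b had 267, 277 and 129 CPM in the controls and 132, 301 and 343 CPM in PM2.5. Its part in the Aurka counts was not tested. No gene of the table lies within 5000 bases of Aurkb (chromosome 10, 53745142 to 53750837).

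Aurkb had the highest mean FPKM of the 41 genes over the 6 libraries, at 71.7, and Cenpe the fourth highest, at 25.3. Together they could move a sum over the list. Without these 2, the summed level of the remaining 34 G2 and mitosis genes was 1086, 1021 and 433 CPM in the controls and 845, 1367 and 1705 CPM in PM2.5. The sum had PM2.5 library 1 between control 3 and the other controls.

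**Figure D3:**
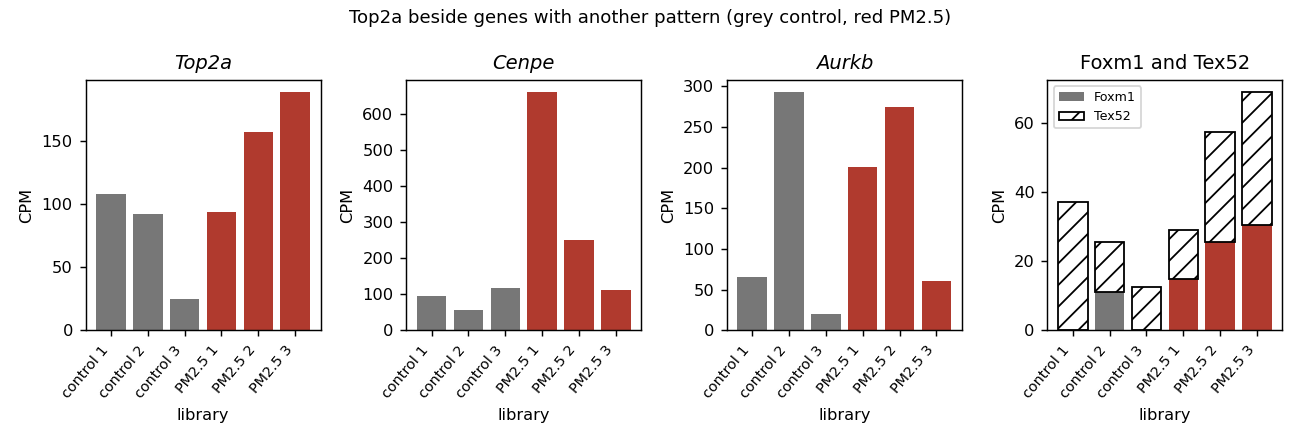
Bars give CPM per library (grey control, red PM2.5) for Top2a, which shows the common pattern, for Cenpe and Aurkb, and for Foxm1 with an overlapping gene, Tex52, stacked on it (hatched). Cenpe peaks at 661 CPM in PM2.5 library 1, Aurkb at 293 CPM in control 2, and Foxm1 is near or at 0 in controls 1 and 3 where Tex52 is not.

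Foxm1 and Mybl2 encode transcription factors that switch on G2 and mitosis genes. Mybl2 had 16.0, 14.8 and 4.30 CPM in the controls and 12.5, 23.3 and 33.6 CPM in PM2.5, the common pattern, with a fold change of 0.98 ± 0.55. Foxm1 had counts of 5, 561 and 0 in the controls and 779, 1546 and 1516 in PM2.5, and its groups did not overlap. The fold change of 2.67 ± 1.73 had an adjusted p of 0.411 by edgeR's quasi-likelihood F test, and it was 8.77 without control 2. The Foxm1 row (chromosome 4, 161638816 to 161650684) lies inside Tex52, a gene with the same strand and the same start, and Tex52 had 1771, 740 and 627 counts in the controls and 737, 1943 and 1916 in PM2.5. Summed, the 2 rows gave 37.1, 25.4 and 12.7 CPM in the controls and 28.9, 57.5 and 69.1 CPM in PM2.5. The sum had control 3 lowest and PM2.5 library 1 within the controls, as for most other G2 and mitosis genes. Outside this sum, Nrip2 also overlaps Foxm1 on the same strand, over 11329 bases, with 188 to 593 counts per library. Rhno1 overlaps it over 556 bases on the opposite strand. How the counting divided reads between these rows was not tested.

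The D cyclins, which pair with Cdk4 and Cdk6, had different values from each other. Ccnd2, the D cyclin that follicle-stimulating hormone induces in granulosa cells, was the most abundant per length: 46.7, 61.3 and 52.4 FPKM in the controls and 30.9, 97.6 and 98.6 FPKM in PM2.5. The controls were close together, and the exposed libraries lay on both sides of them. The log2 fold change was 0.50 ± 0.42, and 0.87 without PM2.5 library 1 (adjusted p = 0.109 by edgeR's quasi-likelihood F test). Ccnd3 had 22.3, 23.6 and 29.3 FPKM in the controls and 18.3, 13.8 and 13.8 FPKM in PM2.5, with every exposed library below every control. Its fold change of -0.72 ± 0.19 gave an adjusted p of 0.122 by edgeR's quasi-likelihood F test, the smallest of the 41 genes, and 0.0292 with DESeq2. The row of Ccnd3 overlaps that of Bysl on the opposite strand. Ccnd1 was low, at 3.41 ± 0.686 FPKM in the controls and 2.24 ± 0.671 FPKM in PM2.5 (SD, n = 3), and its fold change was -0.60 ± 0.33. In FPKM its groups overlapped, with 2.68 in control 3 and 2.76 in PM2.5 library 2. In CPM they were narrowly apart, with 6.91 and 6.80 in the same libraries. For lower groups that do not overlap in CPM the share among all genes was 15.2%.

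**Figure D4:**
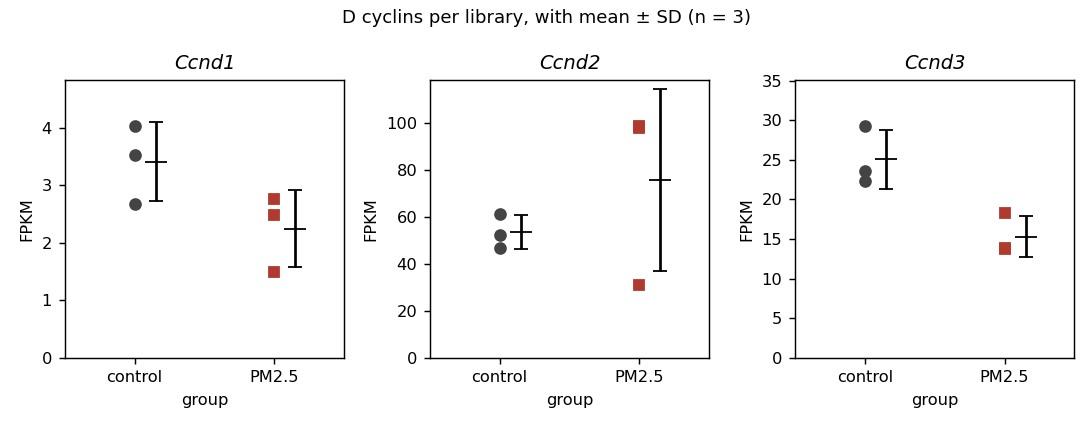
FPKM of the 3 D cyclins in each library (circles control, squares PM2.5) with the mean and SD of each group (n = 3). Ccnd3 is lower in each exposed library than in any control, Ccnd2 lies on both sides of the controls, and Ccnd1 is the lowest in level.

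The E cyclins, partners of Cdk2, had fold changes near 0. Ccne1 had 10.4, 9.72 and 6.97 CPM in the controls and 5.23, 8.68 and 14.7 CPM in PM2.5, and Ccne2 14.1, 12.3 and 12.1 CPM in the controls and 10.8, 8.37 and 16.7 CPM in PM2.5. Exposed libraries lay both above and below the controls for each. Fold changes were 0.08 ± 0.41 and -0.10 ± 0.30, both smaller than their SE. The row of Ccne2 overlaps that of Ints8 on the opposite strand.

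A further list of mitosis genes outside the 41 was also mostly positive. Of its 69 genes, 67 were found and tested, 59 had a positive log2 fold change and the median was 0.55. None passed by edgeR's quasi-likelihood F test after adjustment across the whole table (0.928% of all genes did). DESeq2 called 5, 4 higher and 1 lower, where it called 4.79% of all genes higher and 6.78% lower. At an unadjusted p below 0.05, 6 were higher (8.96%, beside 9.17% of all genes) and 1 lower (1.49%, beside 11.7%), so these shares were not above those of all genes. The median became 0.33 when control 3 was left out, 0.38 when PM2.5 library 3 was, and 0.12 (46 of 67 positive) when both were. Control 3 was the lowest library for 55 of the 67 (82.1%, beside 25.7% of all genes). PM2.5 library 3 was the highest for 50 (74.6%, beside 20.8% of all genes). The smaller medians without these libraries therefore follow largely from the choice of what was left out. Cdc25a, the phosphatase that activates Cdk2 at S phase entry, had 49.8, 42.3 and 37.4 CPM in the controls and 87.7, 95.8 and 75.8 CPM in PM2.5. Unlike most of the list, its exposed libraries were close together and all well above the controls. The fold change was 1.00 ± 0.16 with an adjusted p of 0.0512. It passed under a stricter filter that kept genes averaging 1 FPKM or more. Mis12, a kinetochore protein, had the opposite direction, with 20.3, 24.5 and 29.2 CPM in the controls and 11.9, 11.5 and 11.4 CPM in PM2.5 (-1.08 ± 0.20, adjusted p = 0.0675 by edgeR's quasi-likelihood F test). The motors Kif15 and Kif20b had fold changes of 1.21 ± 0.35 and 1.63 ± 0.50 and were higher in each exposed library than in any control.

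Of 24 partners and regulators (G1 kinases, CDK inhibitors, pocket proteins, E2F and MuvB factors) 14 had a positive fold change and the median was 0.14. Leaving out control 3 gave a median of 0.10, PM2.5 library 3 of 0.14, and both of -0.09. None passed by edgeR's quasi-likelihood F test, and DESeq2 called 1, lower, a direction in which it called 6.78% of all genes. The 2 genes with an unadjusted p below 0.05, both lower, made up 8.33% of the list, beside 11.7% of all genes. Cdkn2b, the p15 inhibitor of Cdk4 and Cdk6, had 69.2, 56.1 and 241 CPM in the controls and 18.4, 25.3 and 43.8 CPM in PM2.5. All exposed libraries were below all controls, with control 3 far above the rest, and the fold change was -2.07 ± 0.62 (adjusted p = 0.144 by edgeR's quasi-likelihood F test). Cdkn1a, the p21 inhibitor that p53 induces, had -0.68 ± 0.23. Cdk6 had -0.98 ± 0.44 and the pocket protein Rbl2 0.48 ± 0.22. Of the 152 tested genes that the table's own annotation assigns to the KEGG cell cycle pathway, 2 passed, and both are named after their values were seen: Atr, the kinase that signals stalled replication, rose, with a log2 fold change of 1.21 ± 0.18, and Tgfb1, a growth inhibitor of many epithelia, fell, with one of -1.87 ± 0.28. Their adjusted p was 0.0457 and 0.0442 by edgeR's quasi-likelihood F test. That count is 1.32% of the 152 genes, near the 0.928% of all genes called. With any 1 library left out neither gene passed, and adjusted p by edgeR's quasi-likelihood F test ran from 0.0706 to 0.237 for Atr and from 0.0706 to 0.236 for Tgfb1. With all 6 libraries the same test passed neither without the filter (0.0565 for both). The replicate block gave 0.1405 for Atr and 0.1025 for Tgfb1. By limma on log2(FPKM + 1) Atr did not pass (adjusted p = 0.0632) and Tgfb1 did (0.0387). DESeq2 called both (adjusted p of 2.1e-06 and 3.5e-07), as did edgeR with other scalings. Of the 152 genes, 102 were positive with a median of 0.24. Leaving out control 3 gave 0.15, leaving out PM2.5 library 3 also 0.15, and leaving out both 0.0097. Control 3 was the lowest library for 48.7% of the 152 and PM2.5 library 3 the highest for 50%, which by itself lowers these medians.

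Scores of some cell type marker lists were lowest and highest in the same libraries as those of the mitosis genes, and others were not. The score of the 36 genes was -0.03, 0.07 and -1.38 in the controls and -0.04, 0.58 and 0.79 in PM2.5. Scores of the 10 granulosa markers were 0.29, 0.17 and -1.17 in the controls and -0.36, 0.41 and 0.65 in PM2.5, with the same lowest and highest libraries. Their summed level ran from 2175 to 8949 CPM in the controls and from 4171 to 11718 CPM in PM2.5. The 10 oocyte markers had scores of 0.11, 0.51 and -1.74 in the controls and -0.36, 0.18 and 1.31 in PM2.5, and sums from 35.6 to 147 CPM and from 69.5 to 236 CPM. None of the 10 was at 0 throughout, and Figla, a transcription factor of the oocyte, had no count in control 3. Luteal scores lay the other way, at -0.17, 0.13 and 0.65 in the controls and 0.31, -0.21 and -0.72 in PM2.5, and the sums of the 7 luteal markers ran from 11357 to 24358 CPM and from 7003 to 17087 CPM. The part of these cell types in the values of the mitosis genes was not tested. In single genes, Inha, the inhibin subunit of granulosa cells, had 886 CPM in control 3 and 6152 CPM in PM2.5 library 3. Zp3, a protein of the egg coat, had 5.17 and 51.1 CPM. Not all markers did so. Control 3 was lowest for 6 of the 10 granulosa and 9 of the 10 oocyte markers (25.7% of all tested genes). PM2.5 library 3 was highest for 6 and 8 (20.8%). Foxl2 had 40.6 and 43.0 CPM in these libraries, and Cyp19a1, Figla and Nobox were highest in control 2. For endothelial cells, another dividing type, the score was 0.26 in control 3 and -0.06 in PM2.5 library 3, so the order was different. The stroma and smooth muscle markers were lowest in control 3 (-0.96) but highest in PM2.5 library 2 (0.93), and the surface epithelium markers lowest in control 3 (-1.74) and highest in PM2.5 library 1 (1.92). The erythroid score separated the groups, with control scores between -1.26 and -0.89 and PM2.5 scores between 0.83 and 1.56. Of the 4 tested, 3 were called higher (Hba-a1, Hbb and Alas2), in a comparison that called 0.928% of all genes. Their adjusted p of 0.0434, 0.0434 and 0.0463 by edgeR's quasi-likelihood F test was close to the threshold. Ahsp, also tested, had 0.27 ± 0.45 and overlapping groups. The T and NK cell score lay the other way, controls between 0.34 and 0.55 and PM2.5 between -0.66 and -0.29. Its members did not all share this. In the same comparison 1 of the 4 tested, Gzmb, was called lower (-4.14 ± 0.66, adjusted p = 0.0486 by edgeR's quasi-likelihood F test). Prf1 had -1.44 ± 0.48, Nkg7 -0.35 ± 0.38 and Cd2 0.06 ± 0.44. Below the filter, Cd3e had a mean of 1.02 CPM in the controls and 0.80 CPM in PM2.5. For Cd3d the means were 0.30 and 0.56 CPM. In neither of these lists was control 3 or PM2.5 library 3 at the end of the order. Macrophage, B cell and theca lists had overlapping groups.

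**Figure D5:**
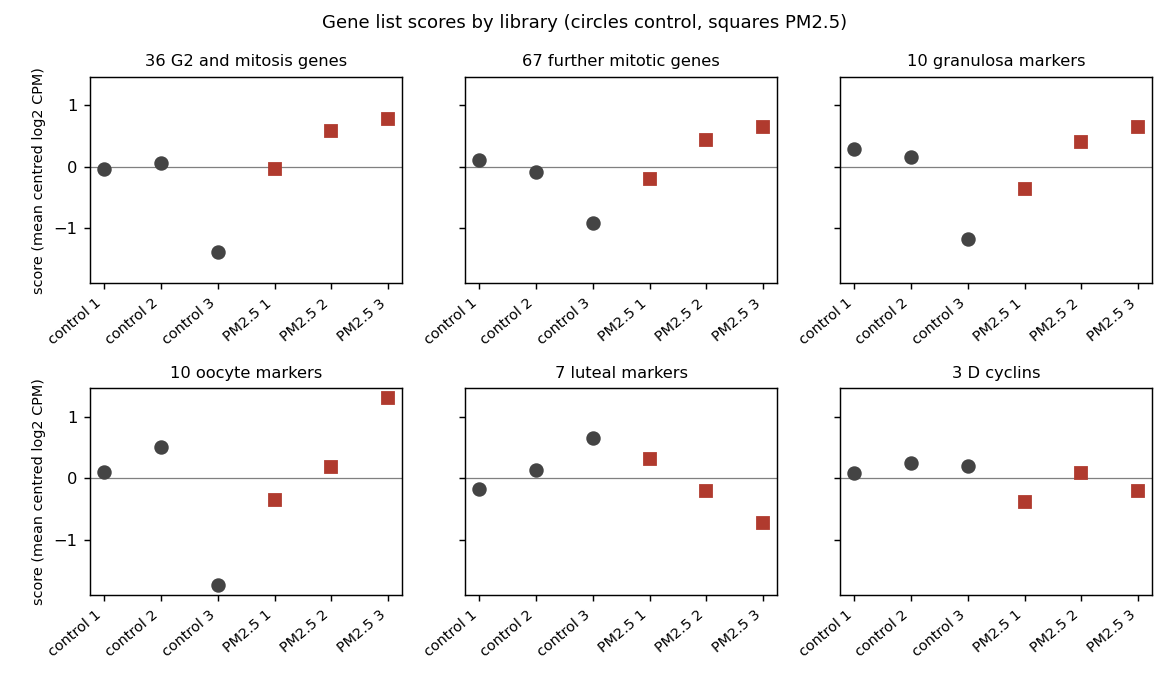
Score (mean of centred log2 CPM) in each library for 6 gene lists, with circles for controls and squares for PM2.5. The G2 and mitosis genes, the further mitotic genes, and the granulosa and oocyte markers are lowest in control 3 and highest in PM2.5 library 3, the luteal markers show the reverse, and the D cyclins show neither.

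The 41 genes lie on 13 chromosomes, with 8 on chromosome 3. In the table's own annotation 11 of them carry the kinetochore term, which 89 of all 22487 genes carry, and 15 of them the term for ATP binding. Rows of other genes overlap 12 of the 41, and 17 have no other gene within 5000 bases. The overlaps include genes with the common pattern. On the opposite strand, Plk4 overlaps Mfsd8 over 4329 bases, Ccna2 overlaps Exosc9 over 963 and Anln overlaps Matcap2 over 295. Mfsd8 had 7.59, 7.49 and 6.42 CPM in the controls and 11.4, 35.0 and 29.4 CPM in PM2.5. The effect of such overlaps on the counts was not tested.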

How the data were processed

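Total RNA was poly(A)-selected, copied with dUTP and sequenced from both ends, per the labels' protocols. Per the submitters' processing notes reads passed through tools listed without roles: StringTie 2.1.6, HISAT2 2.2.1, cutadapt 1.9, edgeR and DESeq2. Raw counts per gene and library were deposited by the authors beside FPKM values that the authors scaled by length and library, per the file headers. The sources used here give neither genome build nor strand setting. Counts were fitted with edgeR 4.0.16 in R 4.3.3 (TMM, glmQLFit, glmQLFTest, all 6 libraries, no covariate) over genes averaging 0.5 FPKM or more, with two-sided p adjusted by Benjamini-Hochberg at 0.05. The SE is the log2 fold change divided by the square root of F. Scores add a prior count of 2. Alternatives used limma 3.58.1, DESeq2 1.42.0, other scalings and filters, a replicate block and left-out libraries. The fit was tested on simulated counts. No library repeats another (chi-square per degree of freedom of 135 or more within groups). The gene set and the lists were chosen with earlier results of these data known. All 41 genes are named, with those past the threshold or up to 4 with the smallest p of the further and partner lists, and Tex52, Atr, Tgfb1 and the overlapping genes were added after their values were seen.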

Additional observations from a re-analysis of the deposited data

How the results depend on the processing

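Of the 41 genes 0 were called in each setting run, except 3 with DESeq2. The further mitotic list had 0 calls, 1 (higher) when genes needed a mean of 1 FPKM and 5 by DESeq2, of which 4 were higher. The partner list had 0, and 1 (lower) by DESeq2. The count over all genes was 142, 8 without a filter and 1767 by DESeq2. Leaving out a library, so that fewer samples were tested, gave 0 to 7. Without control 3 and PM2.5 library 3 together it was 56. The other causes were not tested. Same-numbered libraries correlated in their deviations over genes at -0.178, 0.162 and 0.0931, so the labels' numbers were not taken as pairs. With the replicate block 1 gene was called over all and 0 of the 41, and the median of the 36 G2 and mitosis genes was 0.78. That median was 0.67 to 0.80 with other scalings, filters and tools and 0.36 to 0.96 with a library left out. For the D and E cyclins the median was -0.10, with a range of -0.38 to 0.10 with a library left out and -0.49 without control 3 and PM2.5 library 3 together. The 41 genes each had at least 2168 counts over the 6 libraries.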
